A study of Mus musculus with 3 samples.

Results

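Imprinted genes are read from only 1 parental copy in many tissues, because the parental germ lines leave different DNA methylation marks at their control regions. Of 10 imprinted genes chosen by name, 9 were measured among the 31053 genes of the count matrices: *Meg3*, *Cdkn1c*, *Grb10*, *Peg3*, *Ndn*, *Nnat*, *Plagl1*, *Impact*, and *Snrpn*. *Rian* was not analysed here. The cells were GFP+ cells sorted from the neocortex (NCx) of mice that carry Sst-Cre and the RCEloxP reporter (a GFP that Cre switches on), with 1 droplet library at each of 3 stages. Tissue of 6 animals was pooled at embryonic day 16.5 (E16.5), of 3 animals at postnatal day 1 (P1), and of 3 animals at postnatal day 5 (P5). All cells share the genotype, and Cre keeps GFP on in any cell that has expressed *Sst*, the somatostatin gene, at some time. With 1 library per stage there is no replicate, and no test between stages or cell groups was made. The 95% intervals below are exact and cover counting error only.

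The members were read in 3 groups of cells. Cells with at least 1 UMI of *Nos1*, the gene of neuronal nitric oxide synthase and a mark of somatostatin neurons that project over long distances, are called Nos1 cells. The E16.5 library held 67 of them, the P1 library 434, and the P5 library 547. Cells with at least 5 *Sst* UMIs and no *Nos1* UMI are called Sst-high cells and numbered 1920, 757, and 896. Cells with a UMI of *Lhx6*, a transcription factor of neurons born in the medial ganglionic eminence, and 0 *Sst* UMIs are called Sst-silent cells. They numbered 776, 491, and 559, of which 2, 26, and 14 also held a *Nos1* UMI and so stood in both groups. A UMI (unique molecular identifier) marks 1 captured RNA molecule. The groups are set by UMI counts and differed in depth. Along the stages the median cell held 7863, 3704.5, and 3073 UMIs in Nos1 cells and 6457, 4557, and 5542.5 in Sst-high cells. In Sst-silent cells it held 4979.5, 3117, and 3316. The median mitochondrial share at P5 was 3.25%, 3.90%, and 4.97% in the 3 groups. The part of depth in differences between groups was not tested. Levels are the UMIs of a gene summed over the cells of a group in a library, per 1000000 UMIs of that group (CPM).

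The libraries held 13429055 to 25638779 UMIs, and 9433 of 12324 cells passed the filter of over 700 genes and under 10% mitochondrial UMIs. The P1 library stood apart: 56.3% of its cells passed against 88.3% at E16.5 and 87.5% at P5, the median mitochondrial share was 5.92% against 4.05% and 4.21%, and it was counted with another release of Cell Ranger. Kept cells of any 2 libraries shared 1 or 2 barcodes. The E16.5 Nos1 group was small and mixed. Of its 67 cells, 14 also held at least 3 UMIs of the glutamatergic genes *Neurod6*, *Neurod2*, *Slc17a6*, and *Slc17a7*, and more of them than of *Gad1*, *Gad2*, and *Lhx6*. At P1 this held for 14 of 434 cells and at P5 for 3 of 547. Such cells are called excitatory-marker cells. The summed level of 6 excitatory markers in Nos1 cells was 590.8, 158, and 6.11 CPM at the 3 stages, against 7.15, 6.53, and 1.81 CPM in Sst-high cells, so values without the cells that hold at least 2 UMIs of the 4 genes are given beside results they move. The summed level of 6 markers of long-range neurons (*Nos1*, which chose the cells, *Chodl*, *Npy*, *Tacr1*, *Pcp4*, and *Cygb*) was 13237, 28668, and 41664 CPM in Nos1 cells against 2598, 2442, and 1935 CPM in Sst-high cells. By the rule, *Nos1* itself is 0 in Sst-high cells. Most of the sum was *Npy*, at 12366, 24679, and 34619 CPM in Nos1 cells against 2406, 2134, and 1396 CPM in Sst-high cells. *Chodl*, *Tacr1*, *Pcp4*, and *Cygb* were each also higher in Nos1 cells at each stage.

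Imprinted genes lie in clusters that share control regions. *Meg3*, a long noncoding RNA, is the first gene of a maternally expressed RNA cluster between *Dlk1* and *Dio3*. *Cdkn1c* encodes p57Kip2, an inhibitor of cyclin-dependent kinases that takes part in leaving the cell cycle, and is expressed from the maternal copy. *Grb10*, an adaptor that dampens insulin and IGF receptor signals, is maternal in most tissues but paternal in neurons. The other members are expressed from the paternal copy. *Peg3* and *Plagl1* encode zinc-finger proteins, *Ndn* (necdin, a MAGE family protein of postmitotic neurons) and *Snrpn* (the splicing protein SmN) lie in the Prader-Willi region, *Nnat* (neuronatin) encodes a small membrane protein of the endoplasmic reticulum, and *Impact* encodes an inhibitor of the translation-control kinase GCN2. The counts do not tell the parental copies apart, so every level is the sum over both.

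The genes are spread over the mouse genome. In GENCODE release M21 on GRCm38, the build of the count files, *Meg3* spans chr12:109541001-109571726, *Cdkn1c* chr7:143458339-143461050, *Grb10* chr11:11930508-12038683, *Peg3* chr7:6703892-6730431, *Ndn* chr7:62346569-62350262, *Nnat* chr2:157560078-157562522, *Plagl1* chr10:13060504-13131694, and *Snrpn* chr7:59982495-60140219. *Nnat* lies inside *Blcap*, on the opposite strand, with 0 shared exonic bases. *Snrpn* shares 27.3% of its exonic bases with Gm38393 and 10.0% with *Snurf* on the same strand, so part of the molecules of this locus may be counted for neither or for another gene. Gm38393 held 1240, 859, and 872 UMIs in the E16.5, P1, and P5 libraries, and *Snurf* held 0 UMIs in every library.

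Promoter windows, the 250 bases before a RefSeq transcription start on GRCm38.p6, were matched for 7 members (12 windows), and they ranged from 0 to 40 CpG sites against a median of 6 over 32851 windows. The palindrome CGCATGCG, the core of the site of the transcription factor NRF1, was in 1.55% of all windows and in 5 of the 12 member windows. These belong to 3 members, *Nnat*, *Ndn*, and *Snrpn*. The motif was chosen after the sequences were seen. These stretches of 30 bases are shown because the 3 genes are all paternally expressed and hold the same palindrome, in capitals, at 23 to 78 bases before the start:
Nnat, chr2:157560042-157560071, + strand, in an intron of Blcap: tcccccaagcgCGCATGCGcacttaggtgg
Ndn, chr7:62348243-62348272, + strand, 5′ UTR exon of Ndn in GENCODE: gcttcccaacaCGCATGCGcaatatcgcat
Snrpn, chr7:60450222-60450251, − strand, between annotated genes: gcaaacatccaCGCATGCGtgattggaagg
Snrpn, chr7:60140285-60140314, − strand, between annotated genes: gcaaacatccaCGCATGCGtgatgggaggg
Snrpn, chr7:60048031-60048060, − strand, intron of Snrpn: gcaaacatgcaCGCATGCGtcgttgaaggt

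The palindrome stood in 3 of the 4 *Snrpn* windows, so these starts carry near copies of the same stretch. The hexamer TGCCGC, which the imprint-protecting protein ZFP57 binds when its CpG is methylated, was in 8.68% of all windows. It was in 2 of the 12 member windows, of *Meg3* and *Plagl1*. Both motifs were searched on both strands and do not overlap. The hexamer lies on the other strand here, so the capitals are its reverse complement:
Meg3, chr12:109540794-109540823, + strand, before the gene, 190 bases before the start: gccaggggcactGCGGCAgatttttttttc
Plagl1, chr10:13090730-13090759, + strand, noncoding exon of Plagl1 in GENCODE, 90 bases before the start: ctggcgtgttgcGCGGCAaagcccacggca

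Neither motif was in the windows of *Peg3* or *Grb10*. The palindrome was also absent from the window of *Plagl1*, which like *Peg3* is expressed from the paternal copy. A match is a run of letters and not evidence of a bound site. The genes that share the palindrome differed in their changes between stages, as their levels show below.

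Together the 9 members held between 1.10% and 2.64% of all UMIs of a group. Along the stages their summed share was 1.49%, 1.62%, and 2.27% in Sst-high cells, 1.29%, 1.79%, and 2.64% in Nos1 cells, and 1.17%, 1.10%, and 1.96% in Sst-silent cells. *Meg3* made up 51.2% of the members' UMIs in Sst-high cells at E16.5 and 86.8% at P5. The sum therefore followed mostly this 1 RNA at P5, and the members are described 1 by 1.

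**Figure D1:**
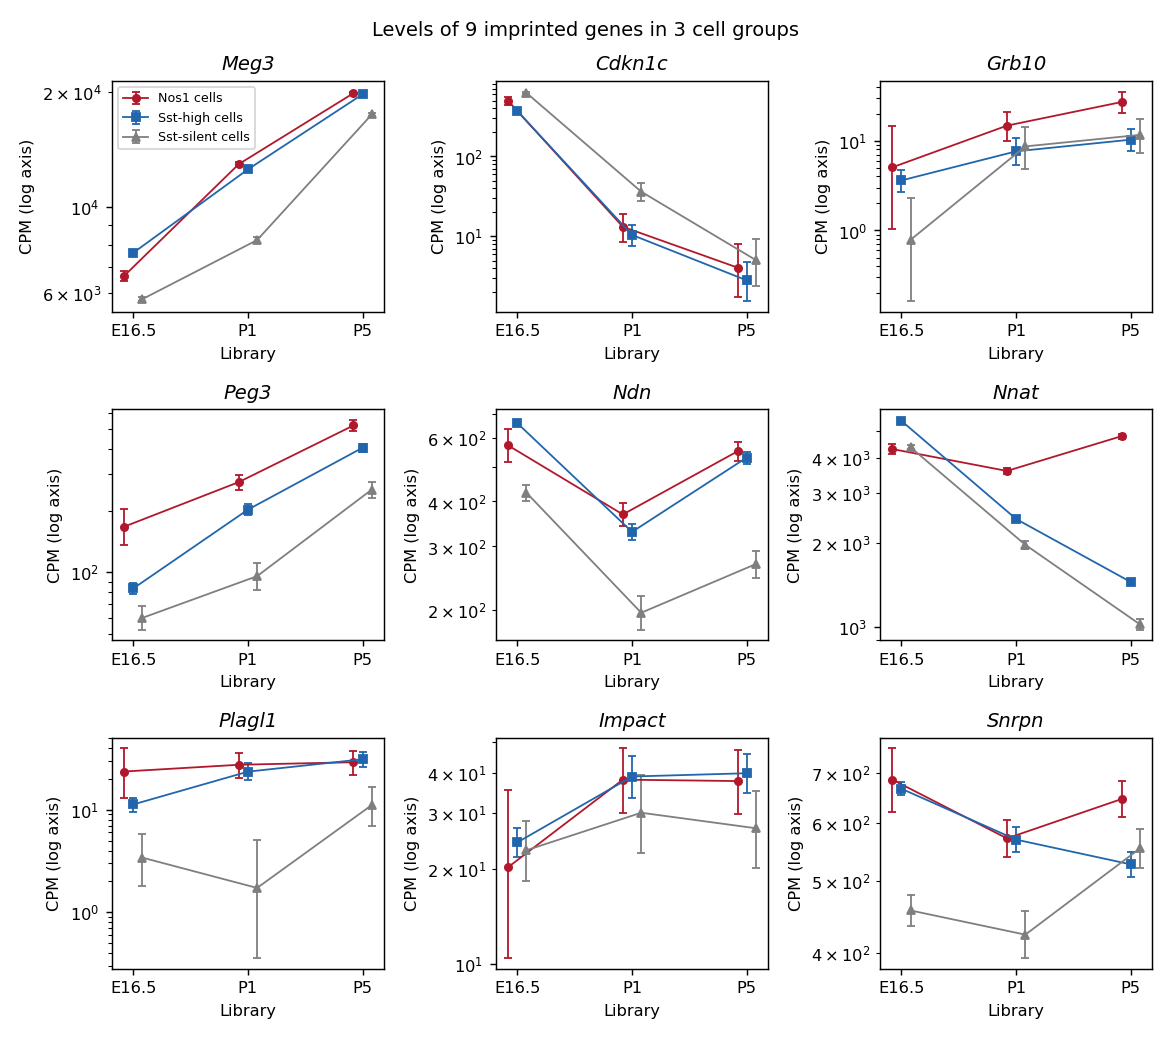
Level of each of the 9 measured imprinted genes (CPM, log axis, a different range in each panel) in the E16.5, P1, and P5 libraries. Points are sums over Nos1 cells (circles), Sst-high cells (squares), and Sst-silent cells (triangles), and bars are 95% Poisson intervals. *Cdkn1c* was 370.2 CPM at E16.5 and 2.82 CPM at P5 in Sst-high cells, while *Meg3* and *Peg3* were higher at each later stage in all 3 groups and *Nnat* parted between the groups.

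Between the first and the last stage, *Meg3* and *Peg3* were higher and *Cdkn1c* was lower in all 3 cell groups, and *Grb10* was higher on few UMIs, too few in Sst-silent cells to be called under stricter cell filters, a minimum of 100 UMIs, or thinning. Counting a gene as changed when it passed 1.5-fold on the log2(CPM + 1) scale with at least 20 UMIs, 3 of 9 members were higher and 1 was lower at P5 than at E16.5 in all 3 groups. Over the 9433 genes tested in all 3 groups, 17.5% were higher and 16% lower. Within Sst-high cells 5 of 9 were higher and 2 lower (28.4% and 25.1% of all genes), within Nos1 cells 4 were higher and 1 lower (27.9% and 25.9%), and within Sst-silent cells 4 were higher and 3 lower (29.1% and 27.8%). With so many genes past this fold in each direction, the members' counts are no result about imprinted genes as a class. Stage and library cannot be told apart, since each stage is 1 library.

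From E16.5 to P1, 4 of 9 members were higher and 2 lower in Nos1 cells (28.6% and 14.3% of all genes), 5 higher and 3 lower in Sst-high cells (26.4% and 13.6%), and 1 of 7 higher and 3 lower in Sst-silent cells (22.9% and 13.4%). From P1 to P5, 3 were higher and 1 lower in Nos1 cells (15.8% and 28.1%), 3 and 2 in Sst-high cells (17.8% and 25.1%), and 3 and 2 in Sst-silent cells (21.5% and 26.1%). By sign alone, 4 members were higher and 1 lower at each step in Nos1 cells (20.6% and 23.6% of all genes), 5 and 3 in Sst-high cells (25.5% and 21.5%), and 2 and 2 of 7 in Sst-silent cells (25.3% and 23%). All genes tested were shifted upward at P1, with a median log2 ratio over E16.5 of 0.16, 0.16, and 0.11 in the 3 groups. Scaling by median-of-ratios size factors brought these medians to 0.04, 0.01, and 0.01, and the split to 23.3% of genes higher and 18.6% lower in Nos1 cells, 19.9% and 18.8% in Sst-high cells, and 18.5% and 17% in Sst-silent cells. From P1 to P5 it moved the median from -0.17 to 0.02 in Nos1 cells and from -0.11 to 0.04 in Sst-high cells, and the split to 22.6% and 19.8% and to 23.2% and 18.5%. Under that scaling, *Meg3* and *Impact* in Sst-high cells and *Peg3* in Sst-silent cells no longer passed the fold from E16.5 to P1.

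*Meg3* was higher at each later stage. Its level along the 3 stages was 7615, 12557, and 19696 CPM in Sst-high cells, and 6629.6, 12954, and 19816 CPM in Nos1 cells. Sst-silent cells held 5771.5, 8221, and 17453 CPM. The order of the stages was the same in all 3 groups, and P5 stood 2.59-fold, 2.99-fold, and 3.02-fold above E16.5 (log2 1.37, 1.58, and 1.60), above 1.5-fold under each of 14 other settings. The study's maturation gene module also holds *Meg3* and *Peg3*, but it was chosen on these same cells and is no independent evidence. Per cell, *Meg3* was close to universal: 99.2% to 99.7% of Sst-high cells thinned to 2000 UMIs held it at the 3 stages, and 99.7% to 99.9% unthinned.

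The exception was the E16.5 Nos1 group, where 86.2% of thinned and 91.0% of unthinned cells held *Meg3*. Of the excitatory-marker cells at E16.5, 67.4% held it (57.1% thinned), and without cells with such UMIs the level in the E16.5 Nos1 group was 8585 CPM (8304 to 8874) in place of 6629.6. *Meg3* was then above the 7615 CPM of Sst-high cells, whereas it lay below with them. At P1 and P5 the log2 ratio of Nos1 to Sst-high cells was 0.04 and 0.01, so the 2 groups stood level in *Meg3*.

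*Meg3* also varied from cell to cell more than counting error gives. In cells thinned to 2000 UMIs its variance was 5.55 to 10.2 times its mean over the 9 sets of cells, where pure counting gives 1. This ratio grows with the level, so it is not compared between genes. In Sst-silent cells at P1 the middle 90% of cells spanned 2 to 38 *Meg3* UMIs, against 11 to 48 in Sst-high cells.

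*Cdkn1c*, the cell cycle inhibitor, was nearly lost after E16.5. Along the stages Sst-silent cells held 623, 36.3, and 5.05 CPM, Nos1 cells 496.5, 13.2, and 4.07 CPM, and Sst-high cells 370.2, 10.4, and 2.82 CPM. The P5 level was lower than the E16.5 level by log2 values of -6.69, -6.62, and -6.60, and the intervals of the 3 ratios overlapped. All of the P5 values rest on 8 to 14 UMIs, and the P1 value of Nos1 cells was 8.33 CPM (15 UMIs in place of 26) without cells with excitatory marker UMIs. Most of the difference lay between E16.5 and P1 (log2 -4.07 in Sst-silent, -5.13 in Nos1, and -5.02 in Sst-high cells), and the same direction held under each of the 14 alternatives. A *Cdkn1c* UMI was found in 60.1%, 5.28%, and 1.34% of Sst-high cells along the stages, or in 37.2%, 1.49%, and 0.254% when thinned. Of the excitatory-marker cells at E16.5, 19.05% held one when thinned (62.8% of 43 unthinned cells, at a median of 12285 UMIs against 6457 in Sst-high cells). No cell type sure to lack *Cdkn1c* was set apart, so the shares at P1 and P5 cannot be told from free RNA.

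The relatives of *Cdkn1c* followed other courses in Sst-high cells. *Cdkn1a*, which encodes p21, stood at 17.3, 32.6, and 79.2 CPM, and *Cdkn1b*, which encodes p27, at 42.2, 46.4, and 23.0 CPM. On the CPM + 1 scale the E16.5 level of *Cdkn1c* was 97.2-fold its P5 level in the same cells.

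At E16.5, *Cdkn1c* also parted Sst-silent from Sst-high cells. Its log2 ratios in the 3 libraries were 0.75, 1.70, and 0.66, so that it was the only member higher past 1.5-fold in all 3 libraries, where 0.959% of all genes were. The E16.5 value rests on 2375 and 5331 UMIs, and 72.7% of Sst-silent cells held a UMI against 60.1% of Sst-high cells (56.8% against 37.2% thinned). The P5 value rests on 10 and 14 UMIs, its interval reaches from -0.49 to 2.12, and it did not pass under 6 of the 14 alternatives. Nos1 cells lay between the other groups at E16.5, with a log2 ratio to Sst-high cells of 0.42, and of 0.07 with at least 2 *Nos1* UMIs. Without cells with excitatory marker UMIs the ratio was 0.72, which passes 1.5-fold. The Nos1 level of 613 CPM (539 to 693) then overlapped the 625 CPM (600 to 651) of Sst-silent cells. The study lists *Cdkn1c* among genes of a type of interneuron found on the same cells.

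**Figure D2:**
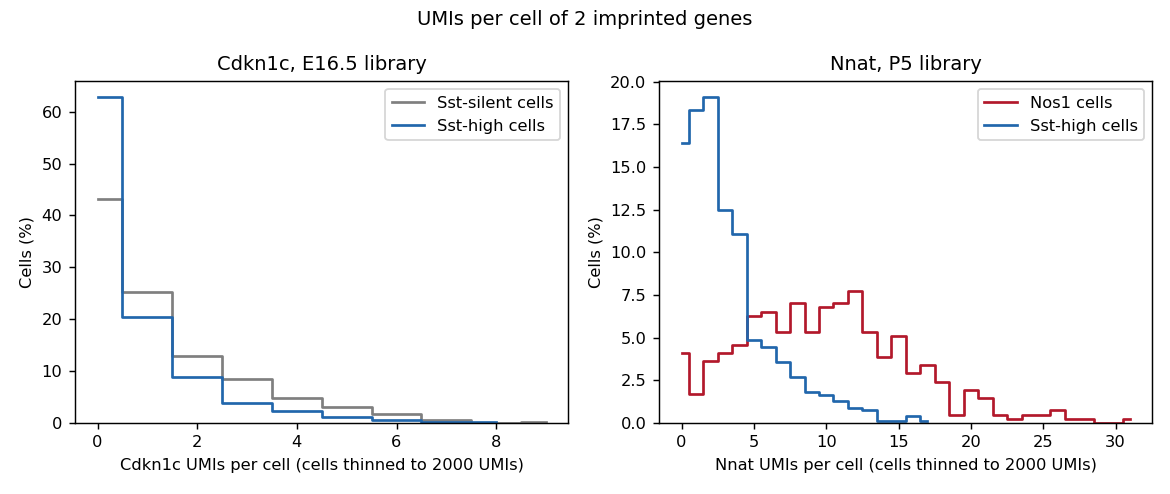
Share of cells (%) by UMIs per cell, in cells thinned to 2000 UMIs, for *Cdkn1c* at E16.5 in Sst-silent and Sst-high cells (left) and for *Nnat* at P5 in Nos1 and Sst-high cells (right). Cells without a *Cdkn1c* UMI made up 43.2% of Sst-silent and 62.8% of Sst-high cells, and the *Nnat* distribution of Nos1 cells lies to the right of that of Sst-high cells, with medians of 10 and 2 UMIs.

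*Nnat* parted Nos1 cells from both other groups at P5. In Sst-high cells it stood at 5437, 2431, and 1449.7 CPM, and in Sst-silent cells at 4376, 1968, and 1024 CPM. Nos1 cells held 4315, 3605, and 4798 CPM. P5 was thus lower than E16.5 by log2 values of -1.91 and -2.09 in Sst-high and Sst-silent cells, while in Nos1 cells the log2 ratio was 0.15, and -0.17 without cells with excitatory marker UMIs, whose E16.5 level was then 5423 CPM. None of the Nos1 stage differences of *Nnat* passed 1.5-fold, except from P1 to P5 under median-of-ratios scaling (log2 0.61).

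In Nos1 over Sst-high cells the log2 ratio of *Nnat* went from -0.33 at E16.5 through 0.57 at P1 to 1.73 at P5. Without the excitatory marker cells the E16.5 value was -0.01, so at that stage the 2 groups stood level. At P1 the level of Nos1 cells was then 3766 CPM in place of 3605, and the ratio passed 1.5-fold, as it did under 3 other alternatives. The P5 difference, 3.31-fold (95% interval of the log2 ratio 1.68 to 1.77), stayed between log2 1.63 and 1.89 under the 14 alternatives. Per cell thinned to 2000 UMIs, the median at P5 was 10 *Nnat* UMIs in Nos1 cells, 2 in Sst-high cells, and 1 in Sst-silent cells. The share of cells without a UMI was 4.11%, 16.4%, and 26.6%.

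In Nos1 cells with either of 2 markers of their subtypes, the counting intervals of *Nnat* overlapped at P5 and not at P1. At P5, cells with a *Dach1* UMI and no *Lypd1* UMI (27 cells) stood at 5406 CPM (4956 to 5886) and cells with a *Lypd1* UMI and no *Dach1* UMI (221 cells) at 5198 CPM (5046 to 5354). At P1 the values were 4442 CPM (4245 to 4647) in 98 cells and 3942 CPM (3729 to 4165) in 55 cells. *Meg3* was higher in the *Dach1* cells at both stages, with 15506 against 11365 CPM at P1 and 23709 against 18244 CPM at P5. Counting intervals leave out the spread between cells. In thinned Nos1 cells the variance of *Nnat* was 2.45 times its mean at P1 and 3.38 times at P5. For *Meg3* it was 6.20 and 5.58 times. Whether the *Dach1* and *Lypd1* cells differ beyond that spread was not tested. The study lists *Nnat* and *Peg3* among genes of long-range neurons, chosen on these cells.

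*Peg3*, a zinc-finger gene, was higher at each later stage and had the same order of groups in every library. Nos1 cells held 167, 275, and 520.1 CPM, Sst-high cells 83.3, 202, and 405 CPM, and Sst-silent cells 59.8, 95.7, and 253 CPM. No intervals of neighbours in that order overlapped within a library. P5 was above E16.5 by log2 1.64, 2.27, and 2.06, past 1.5-fold in each of the 14 alternatives. The log2 ratio of Nos1 to Sst-high cells was 0.99 at E16.5 and 0.44 and 0.36 at P1 and P5, so only the first passed 1.5-fold, and the level was 164 CPM there without excitatory marker cells. In thinned cells grouped again, the P5 ratio of Sst-silent to Sst-high cells was -0.13 in place of -0.68. Thinned cells of the groups as first formed held means of 0.479 and 0.770 *Peg3* UMIs. Excitatory-marker cells held 142, 188, and 216 CPM.

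*Plagl1*, the other zinc-finger gene, was counted by few UMIs. Sst-high cells held 11.2, 23.5, and 31.0 CPM (162, 108, and 154 UMIs), and Nos1 cells 23.6, 27.4, and 29.03 CPM (14, 54, and 57 UMIs). The E16.5 ratio of Nos1 to Sst-high cells, log2 1.00, rests on those 14 UMIs (31.7 CPM on 13 UMIs without cells with excitatory marker UMIs). It turned to -3.80 in thinned cells grouped again. Sst-silent cells stood below both in every library, with 3.41, 1.73, and 11.1 CPM (13, 3, and 22 UMIs). The log2 ratio of Sst-silent to Sst-high cells was -1.47, -3.17, and -1.40. The P1 value rests on 3 UMIs, and without the pseudocount its interval is -6.07 to -2.18. In thinned cells grouped again the ratios were -2.16, -0.81, and -0.37, and only the first was called. In Sst-high cells its P1 level was above E16.5 by log2 1.00, but below it by log2 -0.60 in thinned cells and -0.30 under stricter cell filters, so that no direction is given for that step.

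Of the 2 members in the Prader-Willi region, *Ndn* passed 1.5-fold from E16.5 to P1 in all 3 groups and *Snrpn* did not. *Ndn* stood at 659.6, 329, and 529.6 CPM in Sst-high cells, 572, 368, and 551 CPM in Nos1 cells, and 423, 196, and 268 CPM in Sst-silent cells. It was lowest at P1 in all 3 groups, with a log2 ratio of P1 over E16.5 of -0.64 in Nos1 cells (-0.77 to -0.36 over the alternatives) and -1.10 in Sst-silent cells. The P1 library is also the one with fewer cells passing the filter, more mitochondrial UMIs, and another Cell Ranger release, and their part in this dip was not tested. In Sst-high cells the ratio lay between -1.17 and -0.79 over the 14 alternatives, stricter cell filters included.

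*Ndn* was lower in Sst-silent than in Sst-high cells in all 3 libraries, by log2 values of -0.64, -0.74, and -0.98. At E16.5 this was just past 1.5-fold, and it was -0.56 in thinned cells grouped again. *Ndn* and *Plagl1* were the 2 members lower past 1.5-fold in all 3 libraries, where 2.44% of all genes were. *Magel2*, a MAGE family relative of *Ndn* in the same region, was lower there too, at 6.82 against 11.7 CPM at E16.5, 4.61 against 9.79 CPM at P1, and 1.52 against 4.23 CPM at P5, although the intervals of the P1 and P5 ratios include equality.

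*Snrpn* moved little. Sst-high cells held 667, 569.5, and 527 CPM, Nos1 cells 687, 572, and 646 CPM, and Sst-silent cells 457, 424, and 554 CPM. None of its stage ratios passed 1.5-fold in any group, except under 2 alternatives. P5 over E16.5 in Sst-high cells was -0.62 in thinned cells grouped again, in place of -0.34. Thinned Sst-high cells as first grouped held means of 1.15 *Snrpn* UMIs at E16.5 and 1.02 at P5. P1 over E16.5 in Nos1 cells was -0.61 with at least 2 *Nos1* UMIs in place of -0.26. *Snrpb*, the gene of the paralogous SmB splicing protein, stood at 234, 90.7, and 45.3 CPM in Sst-high cells. It was lower past 1.5-fold at both steps (log2 -1.36 and -0.99).

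*Grb10* was near the counting limit. Nos1 cells held 5.05, 14.7, and 27.0 CPM (3, 29, and 53 UMIs), Sst-high cells 3.61, 7.62, and 10.3 CPM (52, 35, and 51 UMIs), and Sst-silent cells 0.787, 8.64, and 11.6 CPM (3, 15, and 23 UMIs). At P5 it was 2.48-fold higher in Nos1 than in Sst-high cells (log2 1.31, interval without the pseudocount 0.81 to 1.98), past 1.5-fold in each of the 14 alternatives. P5 was above E16.5 by log2 2.21, 1.29, and 2.82. Without cells with excitatory marker UMIs the same 3 UMIs gave 7.32 CPM in Nos1 cells at E16.5, and the ratio to Sst-high cells then passed 1.5-fold. The Nos1 and Sst-silent values rest on 3 UMIs at E16.5, with intervals of 0.79 to 4.74 and 2.16 to 6.26 without the pseudocount. *Grb7*, a relative, held 0 UMIs, which allows up to 0.208, 0.653, and 0.604 CPM in Sst-high cells along the stages, and *Grb14* stood at 16.9, 13.9, and 16.7 CPM in Sst-high cells.

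*Impact* stood at 24.2, 39.0, and 39.9 CPM in Sst-high cells, 20.2, 38.1, and 37.7 CPM in Nos1 cells, and 22.8, 30.0, and 26.8 CPM in Sst-silent cells. At P5 the log2 ratio of Sst-silent to Sst-high cells was -0.56 (interval without the pseudocount -1.04 to -0.13), within 1.5-fold, but it was -0.60 under median-of-ratios scaling and 0.62 in thinned cells, so no direction is given. In Sst-high cells the P5 level was above E16.5 by log2 0.70, but by -0.02 in thinned cells grouped again, where the sign also turned in Nos1 cells. Thinned Sst-high cells as first grouped held means of 0.0478 *Impact* UMIs at E16.5 and 0.0751 at P5.

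**Figure D3:**
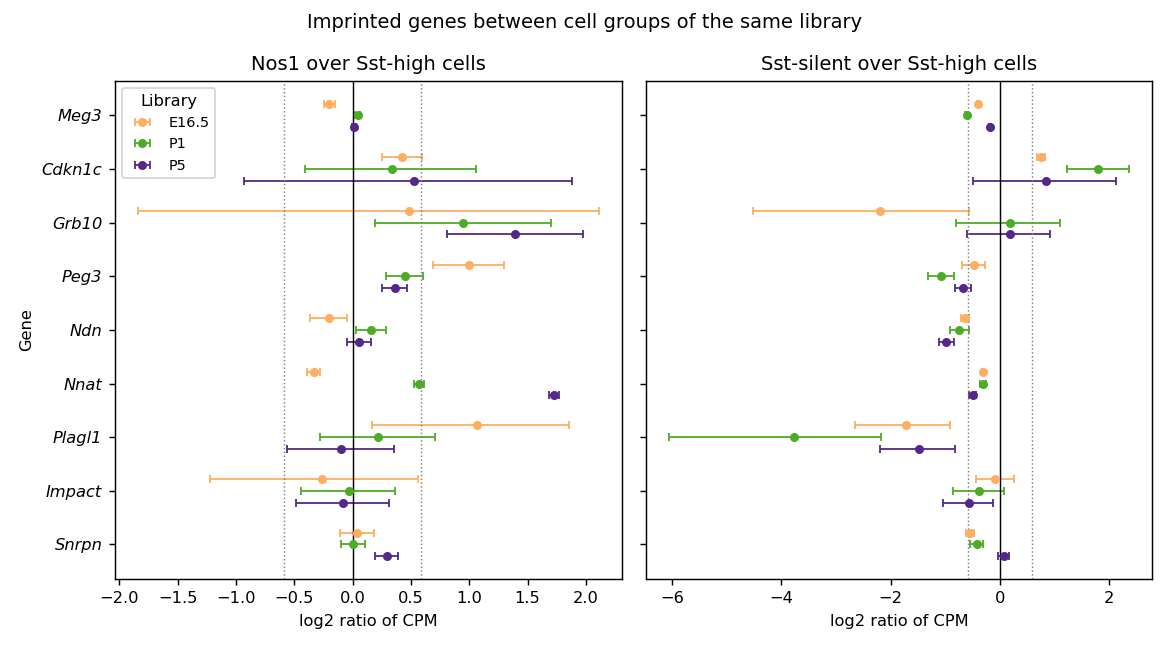
Log2 ratio of the CPM of each member, without a pseudocount, in Nos1 over Sst-high cells (left) and Sst-silent over Sst-high cells (right), with a point for each library and 95% counting intervals. Dotted lines mark 1.5-fold. *Nnat* at P5 stands apart on the left, and on the right *Cdkn1c* lies above and *Ndn* and *Plagl1* below the lines in all 3 libraries.

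Between Nos1 and Sst-high cells no member passed 1.5-fold in the same direction in all 3 libraries, where 1.73% of all genes were higher and 1.96% lower. At single stages 2 members were higher at E16.5 (*Peg3*, and *Plagl1* on 14 UMIs with its sign turned in thinned cells, with 11.1% of genes), 1 at P1 (*Grb10*, 7.07%), and 2 at P5 (*Nnat* and *Grb10*, 8.73%). No member was lower at any of the 3 stages, against 15.1%, 9.01%, and 13.7% of genes. Between Sst-silent and Sst-high cells, 1 member was higher at each stage (*Cdkn1c*, with 5.03%, 7.16%, and 8.61% of genes). Lower there were 3 members in the E16.5 library (11% of genes), 4 in the P1 library (14.7%), and 3 in the P5 library (9.7%). By sign alone, 6 of the 9 members were lower in Sst-silent cells in all 3 libraries and 1 was higher, where 22.8% and 25.3% of all genes were. The 6 include *Impact*, whose E16.5 and P1 intervals include 0 and whose sign turned in thinned cells. In Nos1 cells 4 were higher and 1 lower than in Sst-high cells in all 3 libraries, where 15.3% and 22.1% of all genes were. The 4 include *Snrpn* at log2 0.0055 at P1, *Grb10* on 3 UMIs at E16.5, and *Cdkn1c*, whose P1 and P5 intervals include 0. The 1 lower was *Impact*, whose intervals all include 0. These counts by sign are no result about imprinted genes as a class.

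The members were also followed along the level of *Sst* itself, in *Lhx6* cells without *Nos1* UMIs, with these genes counted after thinning to 2000 UMIs. Cells that lost their *Nos1* or *Sst* UMIs in thinning thus count as without them. The class with 0 *Sst* UMIs held 712, 463, and 483 cells, while 703, 382, and 447 Sst-silent cells had 2000 UMIs. The part of such cells in the levels below was not tested. *Ndn* was higher with more *Sst* UMIs at each stage, though the intervals of the lower pair of classes overlapped at E16.5 and those of the upper pair at P1. It stood at 465, 504, and 608 CPM in cells with 0, 1 to 4, and 5 to 19 *Sst* UMIs at E16.5, at 186, 254, and 296 CPM at P1, and at 296, 407, and 686 CPM at P5. *Nnat* followed the same order, with 1025, 1477, and 2090.2 CPM at P5, but its lower classes overlapped at E16.5, at 4428 CPM (4319 to 4538) and 4585 CPM (4471 to 4701). *Meg3* did so at E16.5 and P1, with 7999, 10400.5, and 12965 CPM at P1, and at P5 the last 2 classes stood level at 20663 and 20396 CPM. *Cdkn1c* was highest in cells with 0 *Sst* UMIs at E16.5, at 599 CPM. The other classes held 331, 307, and, with 20 or more *Sst* UMIs, 373 CPM (296 to 463), and their intervals overlapped. *Snrpn* had no common order.

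**Figure D4:**
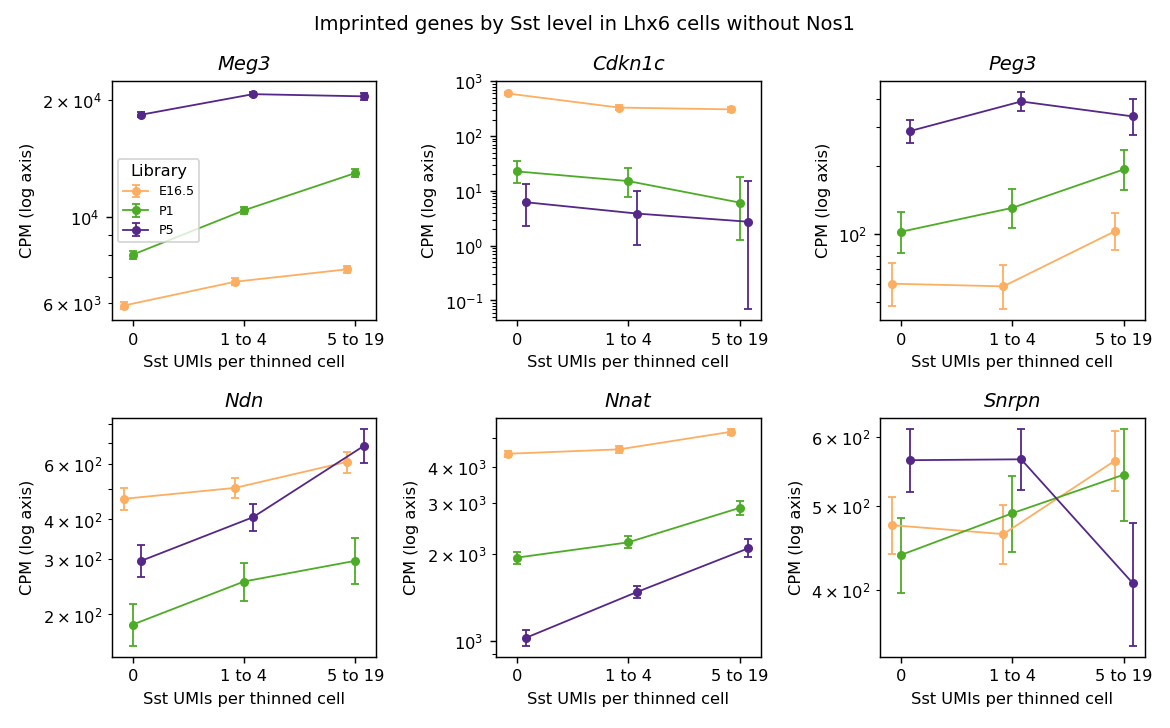
Level of 6 members (CPM, log axis) in *Lhx6* cells without *Nos1*, split by their *Sst* UMIs, in each library. All counts, also of *Lhx6*, *Nos1*, and *Sst*, are after thinning to 2000 UMIs per cell. Bars are 95% Poisson intervals, and cells with 20 or more *Sst* UMIs (110, 20, and 21 cells along the stages) are not drawn. *Ndn* and *Nnat* are higher with more *Sst* at each stage, and *Cdkn1c* at E16.5 is highest in cells with 0 *Sst* UMIs.

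Which other genes followed a member was described by Pearson's r of log2(CPM + 1) over the 9 sums of 3 groups in 3 libraries, among 7215 genes with a mean of at least 20 CPM. The sums share libraries and are not independent. *Meg3* had many followers, with 562 genes above an r of 0.9 and *Dlgap3* (0.995), *Jazf1*, and *Spryd3* in front. *Cdkn1c* had 457, led by *Lonp2* (0.994), *Ssrp1*, and *Cct3*, and *Peg3* had 255, led by *Baalc* (0.989), *Fkbp1b*, and *Tmem246*. *Nnat* had 4, with *Eif2b3* (0.947) and *Ttc5* in front, and *Snrpn* had 3, *Sec61b* (0.937), *Hsbp1*, and *Nap1l2*. *Ndn* had 10, and *Maged2*, another MAGE family gene, was the second of them (0.929) after *Prmt2*. *Plagl1* had 13, led by *Trpc1* (0.974), *Impact* 45, led by *Unc13b* (0.960), and *Grb10* 71, led by *Zfp575* (0.961). Between members, *Meg3* and *Peg3* had an r of 0.91 and *Meg3* and *Cdkn1c* of -0.96. Among the genes that share the palindrome, *Ndn* and *Snrpn* had an r of 0.72, *Nnat* and *Ndn* of 0.62, and *Nnat* and *Snrpn* of 0.44.

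Within cells, most pairs of members were found together about as often as their single shares give. Among Sst-high cells at E16.5 thinned to 2000 UMIs, *Peg3* and *Plagl1* were found together in 12 of 1862 cells, where 5.09 would be expected from their shares, and in Sst-silent cells at P1 *Cdkn1c* and *Ndn* in 11 of 382 cells against 5.50. These pairs were picked after the values were seen, and both rest on few cells.

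Of 57 other imprinted genes listed for comparison, 54 were measured. In Sst-silent against Sst-high cells, 5 of 33 tested in all libraries were lower in all 3 and 0 were higher, beside 2.44% and 0.959% of all genes. The 5 were *Magel2*, *Mest*, *Kcnk9*, *Rasgrf1*, and *Cobl*. *Mest*, which encodes a membrane protein of the hydrolase fold, stood at 19.4 against 35.8 CPM at E16.5, 15.6 against 31.1 CPM at P1, and 24.8 against 39.9 CPM at P5. *Rasgrf1*, a Ras exchange factor, stood at 9.60 against 34.2 CPM at P5, with 3 and 2 UMIs in Sst-silent cells at E16.5 and P1. Of *Kcnk9*, a potassium channel, Sst-silent cells held 2, 4, and 11 UMIs, and its E16.5 and P1 intervals include equality.

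*Cobl*, a neighbour of *Grb10* that encodes an actin nucleator, was the only one of 33 that was higher in Nos1 than in Sst-high cells in all 3 libraries. It stood at 23.6 against 9.65 CPM at E16.5, 57.9 against 19.4 CPM at P1, and 64.2 against 31.0 CPM at P5. Sst-silent cells held 0.262 (1 UMI), 7.49, and 15.7 CPM, so the 3 groups kept 1 order at each stage. *Mest* was also higher in Nos1 cells at P1 (69.1 CPM) and P5 (85.6 CPM), but not past 1.5-fold at E16.5.

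Along the stages in Sst-high cells, 15 of 39 other imprinted genes were higher and 11 lower at P5 than at E16.5, beside 28.4% and 25.1% of all genes. The 5 with the largest ratios were *Rasgrf1* (4.10 to 34.2 CPM, log2 2.79), *Commd1* (71.2 to 10.9 CPM, log2 -2.60), *Kcnk9* (1.39 to 12.7 CPM, log2 2.52), *Ascl2* (log2 2.40, from 1 to 23 UMIs, interval without the pseudocount 3.44 to 11.4), and *Zim1* (4.10 to 22.8 CPM, log2 2.22). *Zim1* is the neighbour of *Peg3* and is expressed from the maternal copy. On the log2(CPM + 1) scale, none of them had a ratio as far from 0 as the -6.60 of *Cdkn1c*. The *Ascl2* interval without the pseudocount reaches farther from 0, so this ranking is given for that scale only.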

How the data were processed

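Per the labels, Cell Ranger (3.1.0 at E16.5 and P5, 3.0.2 at P1) was run on GRCm38, and the authors deposited whole-number UMI counts per gene and cell, without normalization. Empty droplets and barcodes of low RNA content had been removed by cell calling with the barcode rank plot. The annotation release is not given in the sources used here. Cells with over 700 genes and under 10% mitochondrial UMIs were kept. No doublet caller was run. Counts were summed per cell group and library in Python 3.11.15 (numpy 2.4.6, scipy 1.17.1, pandas 2.3.3, matplotlib 3.10.9), scaled to CPM, and compared as log2(CPM + 1). A gene was called past 1.5-fold with at least 20 UMIs over both sums. Intervals are exact (95%): Poisson for levels, Clopper-Pearson for shares, and conditional binomial for ratios. With 1 library per stage the study's tests of cells against cells were not run, since cells are not replicates. The steps were tested on simulated data. To compare shares, cells were thinned to 2000 UMIs, and 2 to 154 cells per group and library were left out. For ratios and calls in thinned cells, the groups were formed again from the thinned counts.

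The members and lists were chosen with earlier results of these data known. The named genes are the members, other imprinted genes past the fold in all 3 libraries between groups, the 5 with the largest P5 to E16.5 ratio in Sst-high cells, 6 paralogs, and the 3 genes with the highest r to each member, not all of which are reported here. In total, 14 alternatives were planned, and the P1 and P5 libraries alone were added after the data were seen. Gene positions are from GENCODE M21 and promoter windows from RefSeq (GRCm38.p6). *Cdkn1c* and *Impact* had no window.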

Additional observations from a re-analysis of the deposited data

Results flagged for a closer look

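*Nnat* and *Snrpn* differed in direction between cell groups along the stages, with 95% counting intervals that exclude 0 in each group named, but the difference between groups was not tested, since there is 1 library per stage. From P1 to P5, *Nnat* had a log2 ratio of 0.41 in Nos1 cells, -0.75 in Sst-high cells, and -0.94 in Sst-silent cells. From E16.5 to P5 the values were 0.15, -1.91, and -2.09, and the first was -0.17 without cells with excitatory marker UMIs, so only the step from P1 to P5 kept opposite signs. *Snrpn* had log2 ratios from P1 to P5 of 0.18 in Nos1 cells, 0.39 in Sst-silent cells, and -0.11 in Sst-high cells. From E16.5 to P5 they were 0.28 in Sst-silent and -0.34 in Sst-high cells. These *Snrpn* ratios are all within 1.5-fold. Signs of its P1 to P5 ratios turned under other settings: Sst-silent cells gave -0.16 with stricter cell filters and Sst-high cells 0.08 as the mean of per-cell CPM.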

How the results depend on the processing

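The 14 alternatives gave 312 counts of members, of which 265 stayed within 1.5 times the reported count and 47 did not. Of 966 called ratios, 7 turned sign. With over 1000 genes and under 5% mitochondrial UMIs per cell, *Grb10* and *Plagl1* at P1 over E16.5 in Sst-high cells were -0.26 and -0.30. In cells thinned to 2000 UMIs and grouped again by the counts left, *Impact* was -0.92 (P1 over E16.5) and -0.53 (P5 over E16.5) in Nos1 cells. It was -0.024 (P5 over E16.5) in Sst-high cells. There *Plagl1* was -0.60 (P1 over E16.5, Sst-high cells), and -3.80 in Nos1 over Sst-high cells at E16.5. Thinned Nos1 cells as first grouped held means of 0.0615, 0.0534, and 0.0725 *Impact* UMIs along the stages. For *Plagl1* at E16.5 these means were 0.0154 in Nos1 and 0.0215 in Sst-high cells, and 0.0232 in Sst-high cells at P1. The cause was not tested.

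The counts of members that moved were these. Stricter cell filters gave, for P1 over E16.5, 2 higher in Nos1 and 3 in Sst-high cells, for P5 over P1, 0, 1, and 1 lower in Nos1, Sst-high, and Sst-silent cells, for P5 over E16.5, 2 higher in Sst-silent cells, and for Sst-silent over Sst-high cells in all libraries, 0 higher and 1 lower. Median-of-ratios scaling gave 5 higher in Nos1 cells (P5 over P1), 3 and 0 higher in Sst-high and Sst-silent cells (P1 over E16.5), and 1 lower in Sst-high cells (P5 over P1). A fold of 2 gave, for P1 over E16.5, 1 higher and 1 lower in Nos1, 2 higher in Sst-high, and 0 higher in Sst-silent cells, for P5 over P1, 0 higher in Nos1, 1 higher and 1 lower in Sst-high, and 1 lower in Sst-silent cells, and between Sst-silent and Sst-high cells 0 higher and 1 lower. A minimum of 100 UMIs gave 2 higher in Nos1 cells (P1 and P5, each over E16.5), 0, 1, and 1 lower in the 3 groups (P5 over P1), 2 higher in Sst-silent cells (P5 over E16.5), and 0 higher in Sst-silent over Sst-high cells. No minimum gave 2, and the mean of per-cell CPM 0, higher in Sst-silent cells (P1 over E16.5), the latter also 1 lower in Nos1 cells. Thinned cells gave 1, 3, and 2 higher (P1 over E16.5) in Nos1, Sst-high, and Sst-silent cells, 3 higher in Sst-high cells (P5 over E16.5), 0 lower in Nos1 cells (P5 over P1), and 0 higher and 0 lower in Sst-silent over Sst-high cells. Requiring 2 *Nos1* UMIs gave 0 lower in Nos1 cells (P5 over P1). That setting, leaving out the top 5% of cells by UMIs, leaving out cells with excitatory marker UMIs, and, added after the data were seen, the P1 and P5 libraries alone each gave 1 member higher in Nos1 than in Sst-high cells in all libraries. A pseudocount of 5 CPM and Sst-silent cells without *Nos1* UMIs each gave 0 higher in Sst-silent cells, and leaving out the top 5% gave 1 lower there. Fewer genes or cells enter under the minimum and the thinning.

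No paired analysis was possible because each stage has 1 library and no test was made, and for the same reason no replicate could be left out. Stage, pooled animals, library, and, for P1, the Cell Ranger release cannot be told apart. At E16.5, 3 UMIs, the limit set for a count of 0, correspond to 5.05 CPM in Nos1, 0.208 in Sst-high, and 0.787 in Sst-silent cells, so *Grb10* there was at the limit in 2 groups. Doublets and free RNA were not removed.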

Other observations

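Several genes that keep or set imprints were lower at P5. Of 11 such genes tested in all 3 cell groups, 2 were higher and 5 lower past 1.5-fold at P5 than at E16.5 in each group, beside 17.5% and 16% of all genes. In Sst-high cells *Zfp57*, whose protein binds the hexamer TGCCGC, stood at 227 CPM at E16.5 and 89.4 CPM at P5. Its partner *Trim28* stood at 115.5 and 42.3 CPM, and *Dnmt1*, the maintenance DNA methyltransferase, at 72.8 and 36.7 CPM. *Dnmt3a*, which sets DNA methylation in neurons after birth, went the other way, from 73.2 to 211 CPM (log2 1.51). These 4 genes were picked after their values were seen. Between the cell groups, 0 of 11 passed 1.5-fold in all 3 libraries.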
